A study of Mus musculus with 8 samples.

Results

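Splicing and RNA processing genes were followed in the mouse pancreatic alpha cell line αTC1-6 by m6A-eCLIP. The set held the protein-coding genes whose RefSeq symbol on mm10 starts with Srsf, Hnrnp, Sf3, Snrp, Prpf, Rbm, Cpsf, Cstf or Ddx and whose span holds at least 1 site of the deposited list, leaving out Hnrnpa2b1, Hnrnpc, Rbm15 and Rbm15b. It came to 95 genes and 439 of 33774 sites, with a median of 3 sites per gene and at most 30. Of these genes, 87 were among the 6531 named genes, and the others shared all their sites with another protein-coding gene. By symbol there were 9 Srsf, 15 Hnrnp, 7 Sf3, 3 Snrp, 7 Prpf, 23 Rbm, 4 Cpsf, 4 Cstf and 23 Ddx genes. Cells had received siRNA against Mettl14 (M14KD) or a scramble siRNA (SCR). Each treatment gave 2 IP libraries, in which an anti-m6A antibody was crosslinked to the RNA with ultraviolet light and reads were counted at sites, and 2 Input libraries of the RNA before that selection. M14KD libraries carried replicate numbers 3 and 4 and SCR libraries 1 and 2, and IP and Input shared these numbers. The line is a clone from an islet tumour of a mouse that carried the SV40 large T antigen under the glucagon promoter, so all 8 libraries share that transformed background, and untransfected cells were not analysed here. The labels do not say whether replicates were separate cultures, so p-values measure the spread between these libraries, which may be technical. The symbols were checked only as names: several Rbm and Ddx genes serve ribosome assembly, translation or RNA decay rather than splicing.

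In splicing, introns are removed by the spliceosome, which is built on small nuclear RNAs held by a ring of Sm proteins (Snrpb, Snrpd1 and Snrpd3 are 3 of these) and joined by the U2 proteins of the Sf3a and Sf3b complexes and by Prpf proteins of the U4/U6.U5 tri-snRNP. SR proteins (Srsf) mostly promote and hnRNP proteins often oppose the use of an exon, DEAD-box helicases (Ddx) remodel the RNA, and the Cpsf and Cstf complexes cut the 3′ end before the poly(A) tail is added. The m6A mark is written during transcription by the METTL3-METTL14 enzyme, usually on an A that follows G or A and precedes C, and is known to lie densely near stop codons and in long internal exons. Many SR and hnRNP genes hold an ultraconserved exon whose inclusion sends their own transcript to decay, so the level of their messenger RNA is itself set by splicing.

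The sequences below are those of the site that was called (adjusted p under 0.05) between M14KD and SCR in the IP libraries (Srsf3, a short SR protein that also takes part in export), of sites near a RefSeq start of other genes, and of a cluster before a start of Hnrnpdl. They were taken from RefSeq promoter windows on mm10, which reach 250 bases before to 50 bases after a gene's start, written 5′ to 3′ on the gene's strand. A stretch ends early where the window ends. The capitals mark GAC where its A lay within 2 bases of the site, and otherwise the site's own base, which is the 15th letter.
Srsf3 site 29032671: gggacggtggtggtCcgccatttcgtgac
Srsf3 site 29032693: tcgtgacgccgcgaGACcgagaatctgta
Snrpd3 site 75518084: tcgccttctaacgtTtgtgcca
Srsf5 site 80945532: ccgagctgctaagtGcgtcagttgtggag
Srsf7 site 80207261: gttgcgcagccgctTccgtg
Sf3a3 site 124714890: acgccgtggccaagGgaaaatggagacaa
Hnrnph1 site 50378301: gcagccccgcaatcTgtgtggacgccagg
Hnrnpdl site 100039256: tcaaggcaagaggGACtgtggccctgcca
Hnrnpdl site 100039307: gagggcgcagcaaggGACtgagccgaact
Hnrnpdl site 100039324: ctctgcactagggGACtgagggcgcagca
The Srsf3 stretches are chr17:29032657-29032685 and chr17:29032679-29032707 on the + strand and overlap, their sites being 12 and 34 bases from the RefSeq start when the first base is 1. Snrpd3 is chr10:75518070-75518091 on the + strand, Srsf5 chr12:80945518-80945546 on the + strand, Srsf7 chr17:80207256-80207275 on the - strand, Sf3a3 chr4:124714876-124714904 on the + strand and Hnrnph1 chr11:50378287-50378315 on the + strand. The 3 Hnrnpdl stretches, chr5:100039242-100039270, chr5:100039293-100039321 and chr5:100039310-100039338 on the - strand, lie before a RefSeq start of that gene but inside its longest span, and also inside the span of Enoph1, so their reads cannot be given to 1 gene. Only GAC on the gene's strand was searched. It lay within 2 bases of 4 of the 21 member sites that fell in a promoter window of their own gene (19.0%, in 12 genes), of 65 of all 497 such sites (13.1%), and in 6.20% of all windows of that width in RefSeq promoters. Of these 4, 3 are the Hnrnpdl sites printed here, which share neighbouring sequence. GAC was present somewhere on the gene's strand in 96.9% of promoters.

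Summed site counts ran from 10207383 to 10918559 in IP and from 3438530 to 3637740 in Input. Mettl14 had 42 and 25 counts in M14KD IP, against 78 and 81 in SCR IP, and 32 and 22 in M14KD Input, against 64 and 44 in SCR Input. Its log2 fold change was -1.17 in IP and -0.96 in Input, with adjusted p of 0.157 and 0.261 by edgeR. Of 10 alpha cell markers 7 held sites, Gcg and Ttr leading, and these summed to 73145 and 72540 CPM (counts scaled to a library's site total) in M14KD Input, against 64925 and 61810 in SCR Input. In IP they summed to 25048 and 24540 CPM in M14KD, against 21505 and 20551 CPM in SCR. Gcg and Ttr carried these differences. Pcsk2 was also higher in M14KD Input, at 1536 and 1632 CPM, against 1480 and 1529 CPM in SCR, and Pou3f4 overlapped. In Input Irx1 had 1475 and 1382 CPM in M14KD, against 1530 and 1568 CPM in SCR, Irx2 466 and 468 CPM in M14KD, against 506 and 501 CPM in SCR, and Slc38a5 193 and 213 CPM in M14KD, against 247 and 215 CPM in SCR. Beta, gamma, acinar, mesenchymal, endothelial and immune markers held no site or at most 5.77 CPM, and the 1 delta marker with a site, Rbp4, is also made by alpha cells. Counts are relative to all sites of a library, so fewer cells with a transcript and less of it per cell cannot be told apart.

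The first comparison asked which of these transcripts the antibody took up more or less than Input in SCR cells. More of the splicing factor genes were lower in IP than higher: all 7 Sf3 genes, 7 of 8 Srsf genes and 10 of 14 Hnrnp genes were lower. Counts were summed over a gene's sites and tested with edgeR's quasi-likelihood test (Benjamini-Hochberg over all genes, threshold 0.05), and 87 genes had sites of their own, of which 86 passed the filter on low counts. Of these, 20 were called higher and 45 lower in IP, that is 23.3% and 52.3%, where the background over all 6379 genes was 35.2% higher and 34.7% lower. The members' median log2 ratio was -0.44, against 0.04 for all genes. In M14KD cells 21 were higher and 45 lower, with a median of -0.46, against a background of 35.5% and 35.6% and a median of 0.02. These ratios are scaled (TMM) so that the middle of all genes lies near 0. Scaled by library totals instead, the median of all genes was 0.75 and that of the members 0.27, with 41 called higher (47.7%, background 62.6%) and 28 lower (32.6%, background 16.6%), so a ratio below 0 means lower than most genes and not less RNA in the IP.

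**Figure D1:**
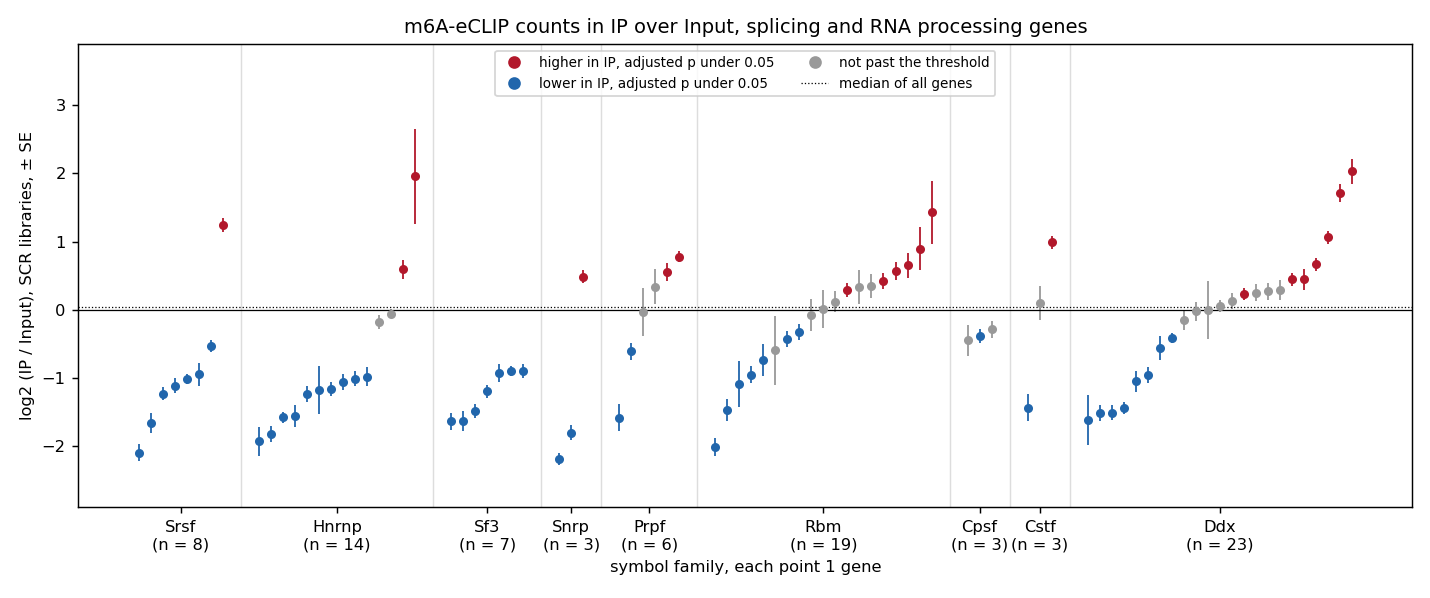
Log2 ratio of IP over Input in SCR cells (y axis, TMM scale, bars ± SE of the fit) for the 86 tested genes, grouped by symbol family along the x axis and sorted within it; red is higher and blue lower in IP at adjusted p under 0.05, grey is neither, and the dotted line is the median of all genes. All 7 Sf3 genes and 7 of 8 Srsf genes lie below 0, while Rbm and Ddx genes spread on both sides, up to 2.03 for Ddx11.

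Among SR proteins 7 of 8 tested genes were lower and only Srsf5 was higher (median -1.06). Srsf6, which recognises exonic enhancers, had 456 and 446 CPM in SCR IP, against 546 and 581 CPM in SCR Input. Its log2 ratio was -1.01 (SE 0.07, adjusted p = 7.55e-09). Srsf4, a close relative of Srsf6, had 248 and 257 CPM in IP, against 238 and 214 CPM in Input, and a ratio of -0.53 (SE 0.08, adjusted p = 2.53e-05), which became 0.18 (adjusted p = 0.0504) on library totals. Srsf3 was the SR gene with the smallest ratio, with 59.7 and 50.5 CPM in IP, against 152 and 140 CPM in Input, or -2.10 (SE 0.12, adjusted p = 6.67e-10). The exception, Srsf5, an SR protein related to Srsf4 and Srsf6, had 479 and 412 CPM in IP, against 119 and 115 CPM in Input (1.24, SE 0.10, adjusted p = 3.42e-08). Its 7 sites were split by position. The 2 near the start were called lower, at -1.11 and -1.13, and of the 5 in the last 546 bases 4 were called higher, up to 1.83 (SE 0.11) at chr12:80950013, which had 2501 and 2078 counts in SCR IP, against 130 and 134 in SCR Input. Srsf1, the founding SR protein, lay at -1.66, Srsf7 at -1.23, Srsf11 at -1.11 and Srsf10 at -0.95. All sites of Srsf3 and Srsf7 lay within the first 200 bases of the gene's span. Over all protein-coding genes such start sites had a median of -1.16, and 84.4% were called lower.

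The Sf3 genes, which encode the U2 proteins that hold the branch point, were lower in IP in 7 of 7 cases, between -0.90 and -1.64 (median -1.20). Of their 23 sites, 22 were called lower and 1 higher. Sf3b5, a small subunit with a short span (chr10:13008450-13009183), had 400 and 410 CPM in SCR IP, against 452 and 481 CPM in SCR Input (-0.90, SE 0.08, adjusted p = 4.30e-08). The 1 site called higher was its own, at chr10:13009010 (0.51, SE 0.10), while its other 5 sites lay between -2.09 and -1.02. Sf3b1, the large scaffold of the complex and a frequent target of cancer mutations, had 152 and 117 CPM in IP, against 179 and 139 CPM in Input (-0.93, SE 0.13, adjusted p = 1.28e-05), which on library totals was -0.22 (adjusted p = 0.15). For Sf3b2, which binds the RNA beside the branch point, IP had 107 and 98.1 CPM, against 140 and 151 CPM in Input (-1.20, SE 0.10, adjusted p = 2.87e-08). Among the Sm proteins, Snrpd3 had the lowest ratio of all 86 genes: 178 and 170 CPM in SCR IP, against 483 and 504 CPM in SCR Input (-2.20, SE 0.09, adjusted p = 6.48e-12), on 3 sites of which 1 is the start site printed above. Snrpd1 followed with 109 and 99.3 CPM in IP, against 249 and 201 CPM in Input (-1.80, SE 0.11, adjusted p = 1.20e-09). Snrpb, which has a single site at chr2:130179337, was higher, with 173 and 167 CPM in IP, against 73.6 and 76.4 CPM in Input (0.49, SE 0.09, adjusted p = 0.000275).

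Of 14 tested hnRNP genes 10 were lower and 2 higher (median -1.11). Hnrnpd, known for binding AU-rich RNA, lay at -1.83 (SE 0.12, adjusted p = 1.85e-09) with 27.3 and 29.8 CPM in SCR IP, against 61.9 and 63.2 CPM in SCR Input, and Hnrnpul2 at -1.93 (SE 0.21) on 1 site. Hnrnpab had 332 and 353 CPM in IP, against 614 and 654 CPM in Input (-1.58, SE 0.09, adjusted p = 2.65e-10). All 3 Hnrnpab sites were start sites, a class that was mostly lower over all genes. Hnrnpa0, an intronless gene and the most heavily covered member, had 3078 and 3000 CPM in SCR IP, against 2002 and 1908 CPM in SCR Input, and was not called, at -0.06 (SE 0.07, adjusted p = 0.463), nor was Hnrnpu, the scaffold attachment factor, at -0.18 (SE 0.10, adjusted p = 0.110). On library totals these were 0.66 (adjusted p = 2.21e-07) and 0.53 (adjusted p = 0.000266), and with the replicate number as a block Hnrnpu was called lower (-0.18, adjusted p = 0.0027), as it was with sites of overlapping genes added (-0.34, adjusted p = 0.00625). The 2 called higher were Hnrnph1, a G-run binding splicing regulator with 376 and 309 CPM in IP, against 160 and 121 CPM in Input (0.59, SE 0.14, adjusted p = 0.00127), and Hnrnpll at 1.96 (SE 0.70, adjusted p = 0.0201). Hnrnpll did not pass the filter on low counts in the Input fit and entered this one through its IP counts, which ties its ratio to that filter. Hnrnpll rests on 27 and 30 counts in SCR IP, against 1 and 2 in SCR Input, and lost its call without either SCR replicate 1 (adjusted p = 0.15) or 2 (adjusted p = 0.0842) and with DESeq2 (adjusted p = 0.0893).

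Prpf genes were split, 2 higher and 2 lower of 6 (33.3% each, near the background of 35.2% and 34.7% of all genes). Prpf4, a U4/U6 protein, had 490 and 498 CPM in SCR IP, against 181 and 175 CPM in SCR Input (0.78, SE 0.08, adjusted p = 2.13e-07). Prpf31, which holds the tri-snRNP together and is mutated in human retinitis pigmentosa, had 117 and 115 CPM in IP, against 42.3 and 55.5 CPM in Input (0.55, SE 0.13, adjusted p = 0.00105), and without SCR replicate 1 it was 0.35 (adjusted p = 0.0707). With 1 site kept per 100 bases it was 0.13 (adjusted p = 0.404). Prpf38b lay at -0.61 (SE 0.13, adjusted p = 0.000475), or 0.11 (adjusted p = 0.44) on library totals, with 68.6 and 58.5 CPM in IP, against 60.8 and 59.1 CPM in Input.

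Rbm genes, a name for proteins with an RNA recognition motif and many roles, gave 6 higher and 7 lower of 19 (median 0.01). That is 31.6% and 36.8%, near the background of 35.2% and 34.7% of all genes. Rbm17, an alternative splicing factor, was lowest with 27.1 and 22.9 CPM in SCR IP, against 69.7 and 56.1 CPM in SCR Input (-2.02, SE 0.13, adjusted p = 2.06e-09). Rbmx, the X-linked gene of hnRNP G, had 151 and 157 CPM in IP, against 81.3 and 74.2 CPM in Input (0.29, SE 0.10, adjusted p = 0.018). Its ratio was 0.22 without SCR replicate 2 and 0.04 (adjusted p = 0.796, not called) with 1 site kept per 100 bases. Rbm19, a ribosome assembly factor, had 140 and 155 CPM in IP, against 62.5 and 73.7 CPM in Input (0.42, SE 0.12, adjusted p = 0.00555), with an adjusted p of 0.0571 without SCR replicate 1 and 0.0608 with thinned sites. Rbm38, a p53 target that binds messenger RNA, had 128 and 150.0 CPM in IP, against 95.1 and 120 CPM in Input (-0.32, SE 0.12, adjusted p = 0.024), turning to 0.40 (adjusted p = 0.0059) on library totals and losing its call without SCR replicate 2 (adjusted p = 0.144). Rbms2 was called higher (1.43, SE 0.46, adjusted p = 0.0116) on 1 site, and not with DESeq2 (adjusted p = 0.0601). It was 0.76 without SCR replicate 2, and its site did not pass the filter on low counts in the Input fit.

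The 3′ end factors were few. Cpsf2, a subunit of the cleavage complex, had 116 and 98.8 CPM in SCR IP, against 91.8 and 81.9 CPM in SCR Input (-0.39, SE 0.11, adjusted p = 0.00493). This call ended without SCR replicate 2 (adjusted p = 0.0509) and with 1 site kept per 100 bases (adjusted p = 0.108), and the value was 0.33 (adjusted p = 0.0125) on library totals. Cpsf4 (-0.29, adjusted p = 0.0552) and Cpsf6 (-0.45, adjusted p = 0.0849) were not called, but both were with the replicate number as a block (adjusted p = 0.0299 and 0.0339), Cpsf4 also with DESeq2 size factors (adjusted p = 0.0465) or a mean count of at least 20 (adjusted p = 0.0337) and Cpsf6 with thinned sites (adjusted p = 0.0492), and on library totals Cpsf4 was called higher (0.43, adjusted p = 0.00543). Cstf1, a subunit of the cleavage stimulation factor, was higher at 289 and 310 CPM in IP, against 88.2 and 98.4 CPM in Input (0.99, SE 0.10, adjusted p = 1.93e-07). Cstf2, which binds the GU-rich element, was lower (-1.44, SE 0.20, adjusted p = 8.23e-06), and Cstf3 was not called (0.09, adjusted p = 0.751) except on library totals (0.81, adjusted p = 0.00675). Each of these last 2 had 1 site.

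DEAD-box genes lay on both sides, 7 higher and 8 lower of 23 (median 0.05). These shares, 30.4% and 34.8%, were near the background of 35.2% and 34.7% of all genes. Ddx11, a DNA helicase of the same superfamily, had the highest ratio of all 86 genes, with 43.1 and 44.6 CPM in SCR IP, against 6.64 and 6.60 CPM in SCR Input (2.03, SE 0.19, adjusted p = 9.19e-08). Ddx6, which represses translation and feeds decapping, had 108 and 102 CPM in IP, against 21.3 and 18.4 CPM in Input (1.71, SE 0.13, adjusted p = 9.92e-09). Ddx54, a nucleolar helicase, had 416 and 471 CPM in IP, against 126 and 137 CPM in Input (1.06, SE 0.10, adjusted p = 9.20e-08). On the other side Ddx5, a co-regulator of transcription and splicing, had 301 and 249 CPM in IP, against 503 and 468 CPM in Input (-1.51, SE 0.11, adjusted p = 7.23e-09), and its paralog Ddx17 lay at -1.45 (SE 0.09). Ddx23, a tri-snRNP helicase, had 344 and 358 CPM in IP, against 286 and 295 CPM in Input (-0.42, SE 0.08, adjusted p = 0.000168), or 0.30 (adjusted p = 0.00189) on library totals. Ddx24, with 974 and 1101 CPM in IP, against 526 and 566 CPM in Input, was called higher at 0.23 (SE 0.09, adjusted p = 0.0371), but lower, at -0.32 (adjusted p = 0.00685), when 1 site was kept per 100 bases, and its call ended without SCR replicate 1 (adjusted p = 0.0866) or 2 (adjusted p = 0.144) and with DESeq2, its size factors or a mean count of at least 20 (adjusted p = 0.0747, 0.0532 and 0.0622). Of the members' sites, 80.0% lay within 100 bases of another site, and whether a read was counted at several neighbours is not given in the sources used here.

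Sites within a gene also differed. At site level 130 of 437 tested sites were called higher in IP and 199 lower (29.7% and 45.5%), where the background over all 33356 sites was 34% higher and 33.4% lower. Called sites in both directions occurred in 21 of the 64 member genes with 2 or more tested sites (32.8%), near the background of 36.7% of 4833 such genes. In Hnrnpa0 the 30 sites, spread over 1911 bases of chromosome 13, ran from -2.23 to 1.16, with 7 called higher and 14 lower. Its lowest site, chr13:58126396, had 127 and 135 counts in SCR IP, against 205 and 162 in SCR Input, and its highest, chr13:58127186, had 1514 and 1534 in IP, against 180 and 135 in Input. The Input counts of these sites were close and their IP counts far apart. In Ddx24, 10 of 25 sites were called higher and 14 lower, from -1.99 to 1.45, and the higher ones stood together in the plot of sites along genes. The 15 Prpf4 sites ran from -0.97 to 1.92, 9 called higher and 2 lower. Hnrnpl, an activator and repressor of CA-repeat exons, had 2 lower sites (-1.72 and -1.64), 3 called higher, up to 2.34 (SE 0.44), and 2 not called. One of its lower sites, chr7:28811112, had 286 and 287 counts in SCR IP, against 178 and 209 in SCR Input, and the highest, chr7:28817313, had 73 and 101 in IP, against 3 and 4 in Input. Only 2 of the 7 Hnrnpl sites passed the filter on low counts in the Input fit. The others could enter the fit of all 8 libraries through IP counts alone, so their higher ratios are tied to that filter. Rbm20, the regulator of titin splicing, had the widest range of all, from -3.46 at chr19:53864489 to 1.38, on few Input counts (2 to 17 per SCR library). Only 2 of its 4 sites passed the filter on low counts in the Input fit, so its range is tied to that filter too.

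**Figure D2:**
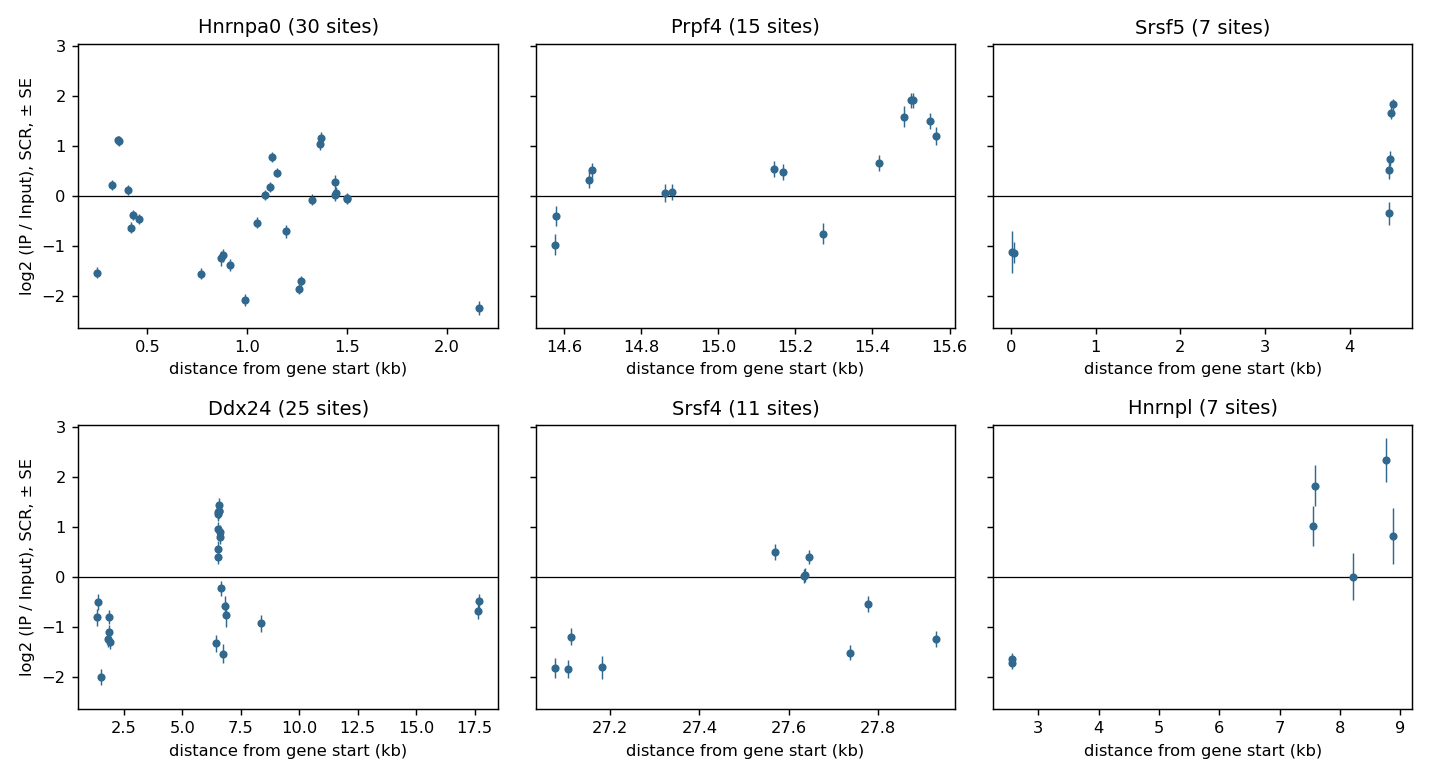
Log2 ratio of IP over Input in SCR cells (y axis, TMM scale, bars ± SE) of each tested site against its distance from the start of the gene's span (x axis, kb, on the gene's strand) for 6 genes. In Srsf5 the 2 start sites lie at -1.11 and -1.13 and the end sites reach 1.83, and in Ddx24 the sites called higher form 1 group.

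Position within the span was read at sites in no other protein-coding gene, for members whose strand could be taken from RefSeq. These were 79 members, of which the 8 with only shared sites gave no site here. The 20 sites within the first 200 bases of the gene's longest span had a median of -1.42, and 17 of them (85%) were called lower and 0 higher. Starts inside a span were not counted here. The 3 Hnrnph1 sites, which fell in promoter windows of such inner starts, were all called higher: 50378301 and 50378303, 11 and 13 bases from a RefSeq start, had 0.45 (SE 0.13, adjusted p = 0.00323) and 0.40 (SE 0.13, adjusted p = 0.00754), and 50377772, before another RefSeq start, had 0.97 (SE 0.14, adjusted p = 5.36e-07). The 229 sites between had a median of -0.35 and the 90 sites within the last 1000 bases -0.24. Over all protein-coding genes these medians were -1.16 for 724 start sites (84.4% called lower), 0.21 for 17686 middle sites and -0.21 for 6999 end sites. Among middle sites 48.5% of the members' were called lower, against 27.2% of all. The middle class holds introns and exons alike, which could not be separated, and that difference was not tested.

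The 8 members whose sites all fell in another protein-coding gene as well are described by site only. The Hnrnpk span shares its 3 sites with Rmi1, and these lay at -1.83, -1.66 and -1.68, with 829 and 812 counts in SCR IP, against 609 and 589 in SCR Input, at the first, chr13:58402449. Srsf2, shared with Mfsd11, had 1 site at -1.70 (SE 0.10). Cstf2t, a paralog of Cstf2 that lies inside Prkg1, had 9 sites on both sides of 0. The 5 at chr19:31084119-31084166 ran from 1.97 to 2.71 and were called higher, with 662 and 611 counts in SCR IP, against 21 and 19 in SCR Input, at the last. Of the other 4, chr19:31083787 was called lower at -1.19 (SE 0.22), and the rest, at -0.28, -0.03 and 0.30, were not called. Rbm4b, shared with the readthrough gene Gm21992, had a cluster of 5 sites between 1.61 and 2.75. Rbm12 had 9 sites from 0.03 to 1.78, Rbm4 had 2 at 1.52 and 1.81, and Cpsf7 had 2 at 0.13 and 0.74. Rbm14 reached from -2.42 to 0.87 over 5 sites. None of these sites was called between M14KD and SCR.

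The next comparison asked whether IP counts differed after Mettl14 knockdown. Very few splicing factor sites passed the test: 1 of 437 was called higher in M14KD (0.229%) and 0 lower, against a background of 0.255% higher and 0.375% lower of 33348 sites. At gene level 0 of 86 were called, as were 0% of 6381 genes by edgeR, DESeq2 calling none of the members either. The called site, a start site in Srsf3 at chr17:29032693, had 834 and 665 counts in M14KD IP, against 629 and 524 in SCR IP. Both M14KD libraries were above both SCR libraries. Its log2 fold change was 0.45 (SE 0.10, adjusted p = 0.0475, edgeR). Values stayed between 0.30 and 0.45 in the settings that ended its call, which were DESeq2 (adjusted p = 0.0821), library totals (adjusted p = 0.0548), no filter (adjusted p = 0.0584) and leaving out SCR replicate 2 (adjusted p = 0.195) or M14KD replicate 3 (adjusted p = 0.685). In Input the same site had 502 and 562 counts in M14KD, against 493 and 456 in SCR (0.23, adjusted p = 0.526). The number of members' sites called higher was itself set by single libraries, with 28 of 438 without SCR replicate 1 (6.39%, background 2.83%), 5 of 438 without M14KD replicate 4 (1.14%, background 0.12%), 0 without SCR replicate 2 (background 0.215%) and 0 without M14KD replicate 3 (background 0%).

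Below the threshold the members lay above 0 more often than other genes. In IP 63 of 86 genes (73.3%) had a log2 fold change above 0, against 52.4% of all genes, with a median of 0.08 against 0.01. Unadjusted p was under 0.05 for 14 genes above 0 and 3 below (background 7.48% and 6.63%). At site level 293 of 437 were above 0 (67.0%, against 51.2%), and unadjusted p was under 0.05 for 42 above and 14 below (background 7.1% and 6.17%). All 8 Srsf and all 3 Snrp genes were above 0, as were 11 of 14 Hnrnp, 5 of 7 Sf3, 13 of 19 Rbm and 14 of 23 Ddx genes, and the medians were 0.16 for Srsf, 0.36 for Snrp and 0.02 for Ddx. Start sites of all protein-coding genes (724) had a median log2 fold change of 0.14 in IP, middle sites 0.006 and end sites -0.01. The members' medians were 0.22 at 20 start sites, 0.05 at middle sites and 0.07 at end sites. The part of position in the members' values was not tested. On library totals 259 of the 437 sites were above 0 (59.3%, against 46.1%). Sites of a gene and genes of a family are not independent, and these shares carry no test.

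Snrpd3 and Snrpd1, which encode Sm proteins, had the lowest unadjusted p of the members in IP, and Snrpb had the ninth. Snrpd3 had 233 and 206 CPM in M14KD IP, against 178 and 170 CPM in SCR IP, and 634 and 599 CPM in M14KD Input, against 483 and 504 CPM in SCR Input. The groups did not overlap in either kind of library. Its log2 fold change was 0.36 in IP (SE 0.08, adjusted p = 0.206) and 0.32 in Input (SE 0.08, adjusted p = 0.189), the second called by DESeq2 (0.33, adjusted p = 0.0475) and the first called without M14KD replicate 4 (0.43, adjusted p = 0.0166). Snrpd1 had 148 and 122 CPM in M14KD IP, against 109 and 99.3 CPM in SCR IP (0.40, SE 0.10, adjusted p = 0.220), and was called without M14KD replicate 4 (0.51, adjusted p = 0.00473). For Snrpb the values were 193 and 192 CPM in M14KD IP, against 173 and 167 CPM in SCR IP (0.20, SE 0.07, adjusted p = 0.299). All 3 thus lay higher in both M14KD IP libraries without passing the test. How many of all genes were called with a replicate left out is not given here, so gene calls in those settings have no background.

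Among SR proteins, Srsf3 had 81.9 and 66.9 CPM in M14KD IP, against 59.7 and 50.5 CPM in SCR IP (0.45, SE 0.12, adjusted p = 0.220), and was called without SCR replicate 1 (0.58, adjusted p = 0.0271) or M14KD replicate 4 (0.57, adjusted p = 0.00535). Srsf7, a relative of Srsf3 with a zinc knuckle, had 161 and 142 CPM in M14KD IP, against 129 and 128 CPM in SCR IP (0.26, SE 0.08, adjusted p = 0.264). All sites of Srsf3 and Srsf7 were start sites, a class with a median of 0.14 in IP over all protein-coding genes. Whether these 2 genes differ from other start sites was not tested. Hnrnph1 had 489 and 393 CPM in M14KD IP, against 376 and 309 CPM in SCR IP, with 162 and 133 CPM in M14KD Input, against 160 and 121 CPM in SCR Input. The IP groups were apart and the Input groups overlapped. Its IP fold change was 0.38 (SE 0.12, adjusted p = 0.239), called without SCR replicate 1 (0.53, adjusted p = 0.0175) or M14KD replicate 4 (0.52, adjusted p = 0.000802), and in Input it was 0.07 (SE 0.14). Rbmxl1, a retrotransposed copy of Rbmx whose reads could be split with its parent, had 101 and 105 CPM in M14KD IP, against 86.6 and 85.1 CPM in SCR IP (0.29, SE 0.08, adjusted p = 0.221). For Ddx39b, the export helicase, the values were 45.2 and 49.1 CPM in M14KD IP, against 39.8 and 38.9 CPM in SCR IP (0.28, SE 0.10, adjusted p = 0.292). Rbm7, of the nuclear exosome targeting complex, had 23.5 and 17.0 CPM in M14KD IP, against 15.6 and 14.8 CPM in SCR IP (0.44, SE 0.17, adjusted p = 0.307), called without M14KD replicate 4 (0.64, adjusted p = 0.0498). The lowest p below 0 was that of Sf3b2, at 84.9 and 82.5 CPM in M14KD IP, against 107 and 98.1 CPM in SCR IP (-0.27, SE 0.09, adjusted p = 0.266). Here too the calls with a replicate left out have no background over all genes.

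**Figure D3:**
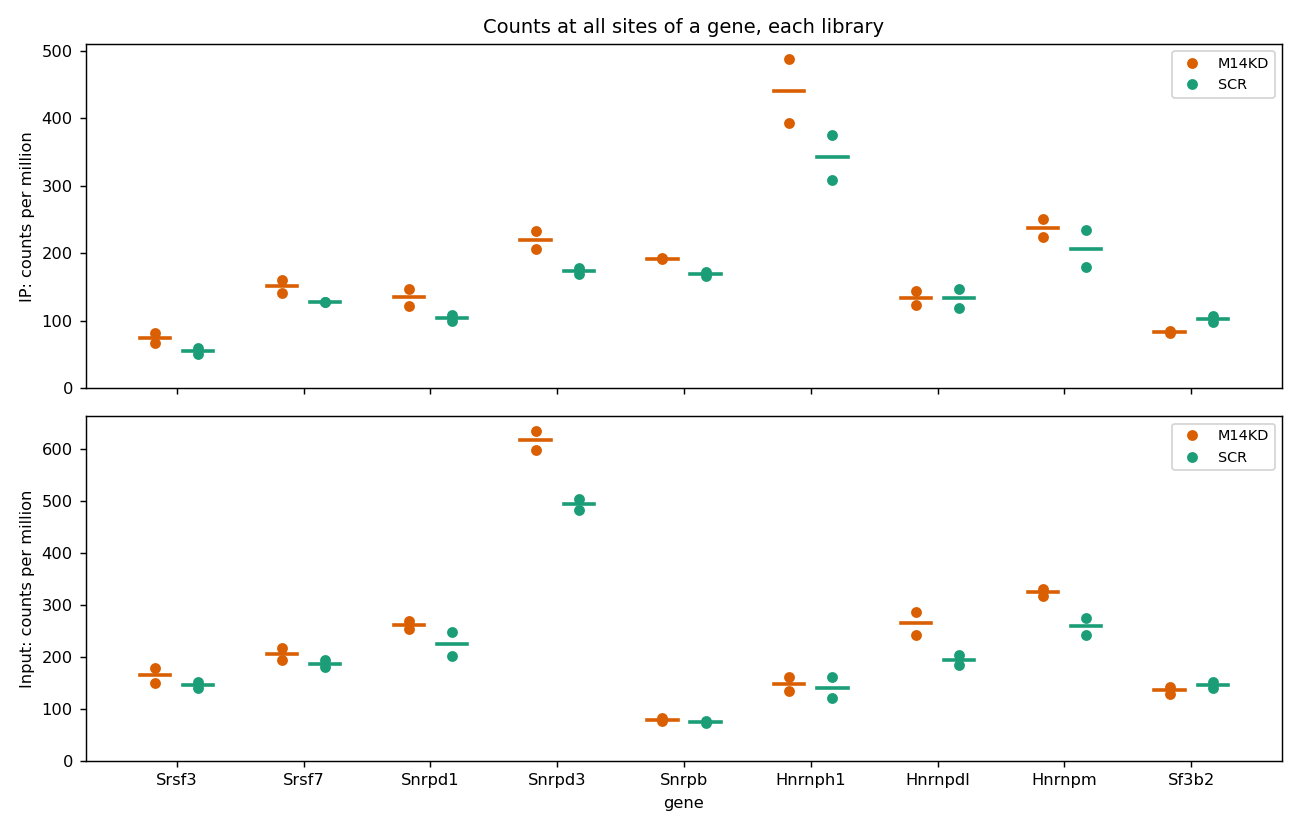
CPM, counts scaled to the library's site total (y axes, from 0), at the sites of 9 genes in each IP library (top) and each Input library (bottom); points are libraries, M14KD left and SCR right for each gene, and bars are the means of 2. Snrpd3 lies higher in M14KD in both panels, Hnrnph1 and Srsf3 are apart in IP and overlap in Input, and Hnrnpdl is apart in Input and overlaps in IP.

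In the Input libraries, which measure the transcripts before the antibody, 1 of 416 sites was called higher in M14KD (0.24%) and 0 lower, against a background of 0.0697% and 0.0232% of 30147 sites. Of 83 gene sums 0 were called by edgeR, as in 0% of 5826 genes. DESeq2 called 2 higher, Snrpd3 (above) and Hnrnpdl. How many of all genes DESeq2 called is not given here, so these 2 calls have no background. Unadjusted p was under 0.05 for 8 genes above 0 and 1 below (background 4.82% and 5.36%). The genes above 0 numbered 52 (62.7%, against 49.4% of all), with a median of 0.08 against -0.003, and 260 of 416 sites were above 0 (62.5%, against 50.4%), 35 of them and 8 of those below with unadjusted p under 0.05 (background 4.55% and 4.14%). All 8 Srsf and all 3 Snrp genes were again above 0.

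The called Input site lay in Hnrnpdl, a regulator of its own splicing, at chr5:100034902. It had 329 and 264 counts in M14KD Input, against 206 and 203 in SCR Input (0.59, SE 0.12, adjusted p = 0.0372), and 397 and 338 counts in M14KD IP, against 401 and 323 in SCR IP (0.10, adjusted p = 0.772). Its call ended with no filter (adjusted p = 0.117) and without any 1 of the replicates (adjusted p = 0.0554 to 0.963), with values between 0.45 and 0.72. The neighbours at chr5:100034878 and chr5:100034894 gave 0.43 and 0.49 (adjusted p = 0.250 and 0.114), and the fourth, chr5:100034993, 0.02. Over all 4, Hnrnpdl had 286 and 243 CPM in M14KD Input, against 203 and 185 CPM in SCR Input (0.45, SE 0.10, adjusted p = 0.189, DESeq2 0.45 with adjusted p = 0.0361), but 145 and 124 CPM in M14KD IP, against 147 and 120 CPM in SCR IP (0.03, SE 0.12). So the groups were apart in Input and overlapped in IP. The 5 start sites shared with Enoph1 had 13 to 25 counts in M14KD Input, against 10 to 23 in SCR Input.

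Other Input genes were not called. Hnrnpm, which binds GU-rich introns, had 331 and 316 CPM in M14KD Input, against 275 and 242 CPM in SCR Input (0.32, SE 0.09, adjusted p = 0.264). Hnrnpr had 195 and 173 CPM in M14KD Input, against 159 and 136 CPM in SCR Input (0.32, SE 0.11, adjusted p = 0.350), and 157 and 140 CPM in M14KD IP, against 140 and 101 CPM in SCR IP (0.32, SE 0.14). Rbm7 had 18.5 and 13.1 CPM in M14KD Input, against 10.2 and 9.62 CPM in SCR Input (0.67, SE 0.24, adjusted p = 0.359). The lowest p below 0 belonged to Ddx6, with 14.4 and 14.3 CPM in M14KD Input, against 21.3 and 18.4 CPM in SCR Input (-0.47, SE 0.20, adjusted p = 0.437).

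**Figure D4:**
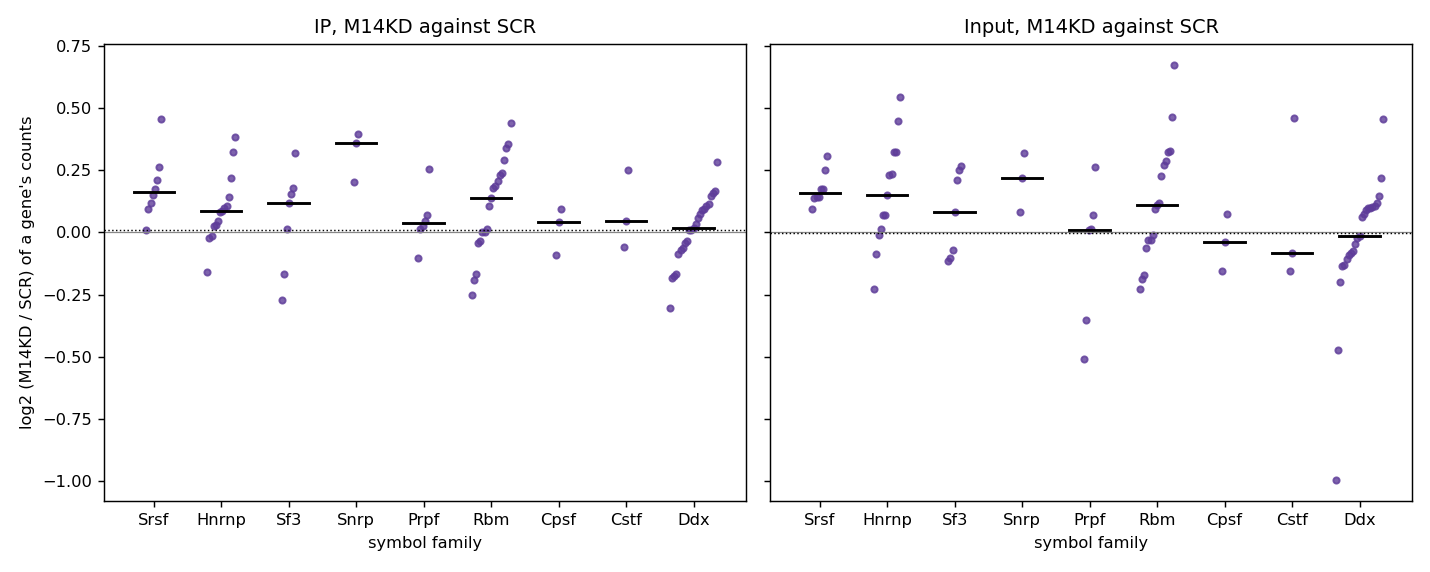
Log2 fold change of M14KD over SCR (y axis) of each tested gene in IP (left) and in Input (right), by symbol family; black bars are family medians and the dotted line is the median of all genes. In both panels every Srsf and Snrp point lies above 0, none of the points being called by edgeR, and Ddx genes centre near 0 with Ddx49 lowest in Input.

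The separation of the libraries was also read directly from the CPM. Both M14KD libraries lay above both SCR libraries for 24 of 86 genes in IP (27.9%, background 19.8%) and below for 8 (9.30%, background 26.3%). In Input 32 of 83 lay above (38.6%, background 19.7%) and 10 below (12.0%, background 21.1%). In both kinds of library 15 lay above (18.1%, background 8.42%) and 3 below (3.61%, background 10.8%). The 15 were Srsf4, Srsf6, Srsf7, Srsf11, Hnrnpl, Hnrnpr, Sf3b6, Snrpb, Snrpd1, Snrpd3, Prpf38b, Rbm7, Rbm28, Rbmxl1 and Ddx20, and the 3 were Ddx6, Ddx23 and Ddx56. Alpha cell marker sums were higher in both M14KD libraries of IP and of Input too, through Gcg and Ttr. In M14KD Input Pcsk2 was higher as well, Pou3f4 overlapped, and Irx1, Irx2 and Slc38a5 were lower (above). The part of the alpha cell markers in these shares was not tested. All sites of the members together took 1.534 ± 0.016% of counts in M14KD IP and 1.498 ± 0.030% in SCR IP (SD, n = 2 each), and 1.263 ± 0.017% in M14KD Input and 1.201 ± 0.028% in SCR Input. The exact two-sided permutation p was 0.333 for both, the smallest that 2 against 2 libraries can give.

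The last contrast set the M14KD ratio of IP to Input over the SCR ratio and asked whether antibody uptake differed beyond the change of the transcript. By edgeR or DESeq2 no member was called among 437 sites or 86 genes, as were 0% of all 33356 sites and 0% of all 6379 genes. Unadjusted p was under 0.05 for 11 member sites (3 above and 8 below 0, background 3.72%) and 1 member gene (background 2.63%). That gene was Hnrnpdl, at -0.44 (SE 0.16, adjusted p = 0.999), the values being those given for Input and IP above. The next were Hnrnpu (-0.28, SE 0.14), Ddx11 (-0.51, SE 0.28), Srsf3 (0.26, SE 0.17) and Hnrnph1 (0.30, SE 0.20). Hnrnpu had 648 and 599 CPM in M14KD IP, against 692 and 595 CPM in SCR IP, and 535 and 532 CPM in M14KD Input, against 508 and 398 CPM in SCR Input. Ddx11 rested on 7.75 and 10.5 CPM in M14KD Input, against 6.64 and 6.60 CPM in SCR Input. Over the members the median was -0.006, against 0.002 for all genes, and 41 of 86 were above 0.

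Other genes of RNA processing, in 4 lists of 133 genes of which 82 were tested, gave 0 calls between M14KD and SCR in IP, Input or the contrast of both. In SCR IP over Input 20 were higher and 44 lower (24.4% and 53.7%), with a median of -0.40. The background over all genes was 35.2% higher and 34.7% lower, with a median of 0.04. In the spliceosome core list 13.3% were higher and 60% lower, and among splicing regulators 25% and 50%. Among exon junction and export genes the shares were 28.6% and 71.4%, and among cleavage and polyadenylation genes 42.9% and 28.6%. The spliceosome core list gave 4 higher and 18 lower of 30, among them Eftud2, the U5 GTPase (-2.03, SE 0.11), Zmat2 (-1.99), Snrnp200, the U5 helicase (-1.80, SE 0.18), and Phf5a, which joins the Sf3b complex (-1.75, SE 0.10). Cwc25 was higher (1.26, SE 0.17). Splicing regulators gave 6 higher and 12 lower of 24, with Tra2a at -1.94 and Sfpq, a paraspeckle protein, at -1.79, and Nova1, the neuronal regulator, at 1.51. Exon junction and export genes gave 4 higher and 10 lower of 14, the export receptor Nxf1 at -1.92, Eif4a3 at -1.74 and Upf2, of nonsense-mediated decay, at 1.76. Cleavage and polyadenylation genes gave 6 higher and 4 lower of 14, Clp1 at 1.36 and Sympk at -2.37. These are counts beside the same background as the members, and no list was tested against other genes.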

How the data were processed

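Reads of 8 m6A-eCLIP libraries were compared from 1 deposited table of whole-number counts per site, with 1 site list for all libraries and 0 unused sample columns. The submitters' processing notes name mm10 as the build and list UMI-tools, cutadapt and STAR. How sites were called, counted and filtered is not given in the sources used here. The deposited counts are not normalized, per the file headers and their unequal totals.

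Sites were named by RefSeq gene spans (GRCm38.p6, which is mm10). A site that lay in more than 1 protein-coding gene entered no gene sum. Strand is not in the table, so antisense genes cannot be told apart. Counts were tested with edgeR 4.0.16 in R 4.3.3 (filterByExpr, TMM, quasi-likelihood F-test, Benjamini-Hochberg over all sites or all genes, threshold 0.05). Fits of M14KD against SCR used the 4 libraries of 1 kind, and the contrasts of IP with Input used 1 model of all 8 libraries. An SE is the log2 fold change over the root of the F value. CPM is a count scaled to the library's site total. The edgeR tests were tried on simulated data, and the outcome is not given here. DESeq2 1.42.0 was an alternative, beside other scalings, filters, thinned sites, left-out replicates and a replicate block.

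IP and Input libraries of the same number deviated together from their group means over 6379 genes (r = 0.24 for SCR and 0.17 for M14KD), so the labels' numbers were taken to pair them. This pairing entered only the alternative fits with a replicate block. The main contrasts of IP with Input, with their SE and p-values, did not use it. Replicate pairs differed by 1.35 to 2.55 times sampling noise (chi-square over degrees of freedom), most in SCR IP.

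The members and gene lists were chosen with earlier results of these data known. Named are members with a called site or gene between M14KD and SCR, the 3 with the highest counts in each family, the lowest unadjusted p in each fit (10 for IP, 5 each for Input and the contrast of both), the 5 highest and 5 lowest called IP over Input ratios and the 5 with most sites. The other members named were chosen after their values were seen.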

Additional observations from a re-analysis of the deposited data

How the results depend on the processing

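Members' IP sites called higher in M14KD numbered 1, against 0 with DESeq2, library totals or no filter, 2 with DESeq2 size factors, 3 with all 8 libraries in 1 model and 0 to 28 with a replicate left out. Members' IP genes called higher numbered 0, against 0 to 6 with a replicate left out (6 without SCR replicate 1, 5 without M14KD replicate 4). Input sites called higher numbered 1, against 0 with no filter and 0 to 1 with a replicate left out, and Input genes called higher 0, against 2 with DESeq2. The median of the members' Input gene changes was 0.08, and 0.040 to 0.132 with a replicate left out. For gene calls between M14KD and SCR with DESeq2 or a replicate left out, the share over all genes is not given here. Those counts therefore have no background. The same holds for IP over Input calls with a replicate block or a replicate left out. It also holds on library totals for M14KD genes and SCR sites. Of all IP sites, 100 were called higher in M14KD with DESeq2 size factors and 118 with all 8 libraries in 1 model. On library totals the SCR IP over Input genes gave 41 higher, 28 lower and a median of 0.27, the M14KD ones 41 higher and a median of 0.26, and the SCR sites 221 higher, 126 lower and a median of 0.46. The M14KD genes called higher were 13 without M14KD replicate 4, against 21. Ratios that turned on library totals were Srsf4 0.18, Hnrnpa0 0.66, Hnrnpu 0.53, Prpf38b 0.11, Rbm38 0.40, Cpsf2 0.33, Cpsf4 0.43 and Ddx23 0.30, and Ddx24 turned to -0.32 with thinned sites. Those scalings shift all genes together; other causes were not tested. Of 1675 values of single named genes and sites under alternatives, 1619 kept their direction and side of the threshold. With the replicate number as a block, 22 members were called higher and 48 lower in SCR IP over Input, 0 in the contrast of IP with Input changes, and of the named results only Hnrnpu, Cpsf4 and Cpsf6 changed their call. With 2 libraries per group, leaving 1 out assumes that the lone library varies like the others. Input depth was below that of IP and limits every ratio.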

Other observations

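Genes of the exon junction complex and of RNA export, which hand spliced RNA to the pore, lay above 0 in M14KD IP in 11 of 14 cases (78.6%, against 52.4% of all genes). Their median log2 fold change was 0.18, against 0.01 for all genes, and 0 were called by edgeR. Unadjusted p was under 0.05 for 5 above 0 and 1 below (background 7.48% and 6.63%). In Input 10 of the 14 lay above 0 as well (71.4%, against 49.4%), with a median of 0.11, against -0.003 for all genes. In the contrast of IP with Input changes 8 of 14 did (57.1%, against 50.4%), with a median of 0.04. Magoh, which holds the complex on the RNA, had 0.48 (SE 0.09, adjusted p = 0.155), and Upf2, which links it to nonsense-mediated decay, 0.51 (SE 0.13, adjusted p = 0.220). In Input Magoh had 0.33 (SE 0.11, adjusted p = 0.339) and Upf2 1.35 (SE 0.37, adjusted p = 0.252), and the contrast for Upf2 was -0.87 (SE 0.39, adjusted p = 0.999). The export genes Thoc1, Thoc7 and Nxt1 had 0.47 (SE 0.15), 0.33 (SE 0.10) and 0.24 (SE 0.06) in IP. Upf1, the decay helicase, lay below in IP at -0.28 (SE 0.08, adjusted p = 0.239). These 6 were chosen after their values were seen. In IP the other lists lay lower than this one. Above 0 were 15 of 30 spliceosome core genes (median 0.001), 16 of 24 splicing regulators (0.04) and 8 of 14 cleavage and polyadenylation genes (0.03).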
